A study of Mus musculus with 42 samples.

Results

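The vas deferens of adult male mice lacking Hoxd9, Hoxd10 and Hoxd11 (genotype Hoxd9,10,11-/-, here DKO) was compared with that of wild-type males (WT). The members were the arrays whose titles name these genotypes in vas deferens, 3 DKO and 3 WT arrays, which is 6 of the 42 arrays of the study. The assay was an Affymetrix array with probes along whole transcripts, and the mice were on a CD1/129 background and 3 to 7 months old. Arrays of 1 genotype are labelled as biological replicates, without saying whether a sample came from 1 animal or a pool, and without litters. The other vas deferens groups, also of 3 arrays each on the same background, were Hoxa9,10,11-/- (AKO), Hoxa9,10,11-/-d9,10,11+/- (AKDH), which adds 1 mutant Hoxd copy, and Hoxa9,10,11+/-d9,10,11-/- (AHDK), which is the DKO genotype with 1 mutant Hoxa copy added. All 15 arrays set the spread in the fit. WT epididymis, and DKO and WT uterus from females, were used where named. The mutations are germline and present in every cell of the body, so the arrays hold the sum of what the vas deferens itself lacks and what other organs lack. In bulk tissue, fewer cells of a type and less RNA per cell cannot be told apart.

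The Hox genes encode transcription factors that are laid out along the chromosome in the order in which they act along the body. Group 9 to 11 genes of the HoxA and HoxD clusters are expressed along the Wolffian duct, the embryonic tube that becomes epididymis and vas deferens, and their paralogs are known to act redundantly there. Loss of Hoxa10 or Hoxa11 is known to shift the vas deferens towards the epididymis in form. The adult vas deferens is a thick smooth muscle tube around a folded secretory epithelium, and it is driven by sympathetic nerves that release noradrenaline and ATP.

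Of 19938 genes, 1170 differed between DKO and WT (5.87%, limma with Benjamini-Hochberg adjustment, adjusted p below 0.05), 768 higher in DKO (3.85%) and 402 lower (2.02%). Without adjustment 4118 genes had a p below 0.05. Most differences were small: their median size was 0.37 on the log2 scale, and 12 rises and 8 falls reached 1, which is a 2-fold change. Values are log2 and were centred by the authors so that each probe set has a median of 0 over the 21 male arrays, so a value says how an array stands to the other male arrays and not how abundant an RNA is. The 3 DKO values and the 3 WT values did not overlap in 5979 genes (30.0%), and 1168 of the called genes were among these. In quantile-normalized values 194 genes were higher and 244 lower, so the excess of rises over falls holds for the values as deposited. The number of calls also rested on single arrays: leaving out WT replicate 1, 2 or 3 gave 389, 238 and 1323 calls, and leaving out DKO replicate 1, 2 or 3 gave 268, 384 and 375.

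**Figure D1:**
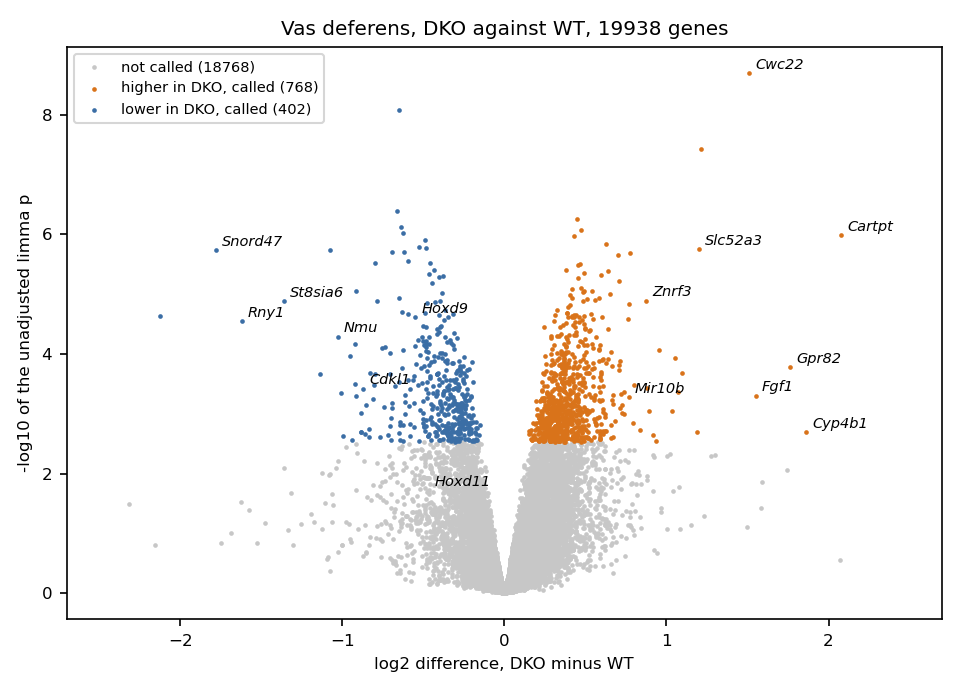
Each point is 1 of 19938 genes in vas deferens; the horizontal axis is the log2 difference DKO minus WT and the vertical axis the -log10 of the unadjusted limma p. Orange points are the 768 genes called higher in DKO and blue points the 402 called lower; Cartpt (2.08) and Cwc22 (1.51) stand out among the rises and Snord47 (-1.78) and Rny1 (-1.62) among the falls.

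One library stood apart before any comparison. WT replicate 3 had high values of prostate and skeletal muscle genes. The prostate transglutaminase gene Tgm4 was at 5.32 there and at -0.10 and -0.03 in the other WT arrays, the prostate gene Pbsn at 4.62 against 0.01 and -0.02, and the fast myosin gene Myh1 at 2.96 against 0.47 and 0.68. The mean of 25 skeletal muscle genes was 0.39, 0.31 and 1.28 in WT and 0.05, 0.06 and 0.10 in DKO, so the groups did not overlap, and that of 19 seminal vesicle and prostate genes was -0.46, -0.02 and 1.29 in WT and -0.18, -0.53 and 0.18 in DKO. By limma 0 genes of either list were called, and at an unadjusted p below 0.05 there were 3 in the muscle list and 0 in the other. The 15-array fit found 858 of the 1170 calls again when WT replicate 3 was left out. Among the other arrays of that fit, AKDH replicate 3 had a sperm gene mean of 1.59, against -0.69 and -0.44 in its replicates. Its motile cilia mean was 1.28, against -0.19 and -0.09, and without this array 1550 genes were called in DKO against WT. AKO replicate 3 was at 2.25 for Tgm4 and 2.10 for Pbsn. The part of such neighbouring tissue in single results was otherwise not tested, except by a skeletal muscle score as a covariate, which left 647 calls.

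Hoxd9 was the targeted gene whose RNA told DKO and AHDK from WT in vas deferens. It was at -0.26, -0.18 and -0.13 on the WT arrays, at -0.86, -0.56 and -0.80 on the DKO arrays and at -0.66, -0.70 and -0.68 on those of AHDK, the other genotype with no intact Hoxd9. Every DKO and AHDK array lay below every WT array, and Hoxd9 fell in DKO (-0.55, SE 0.08, limma adjusted p = 0.00581). But in quantile-normalized values it was -0.43 (limma adjusted p = 0.0695, the highest of the 20 alternatives, which began at 0.000548). In uterus the same probe set was at 0.50, -0.10 and 0.44 in WT and 0, 0.19 and 0.31 in DKO. Those groups overlap, and the difference of -0.12 was not called (limma adjusted p = 0.865). Hoxd11 was at 0.66, 0.67 and 0.13 in WT and -0.02, -0.18 and 0.26 in DKO, which overlap in 1 DKO array, and was not called (-0.47, limma adjusted p = 0.144). Hoxd10 (0.16, limma adjusted p = 0.774) had overlapping groups. The intact HoxA genes were not called either, with Hoxa9 at 0.13, Hoxa10 at -0.20 and Hoxa11 at 0.53. Each of the 6 was read by a single probe set of unstated position, so a value that did not fall checks nothing about the mutation.

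The microRNA gene Mir10b lies within the HoxD cluster, 5 measured genes from Hoxd9 in the order along chromosome 2, and Mir10a, its paralog, lies in HoxB. Their mature 5p strands are shown because Mir10b was the 1 other HoxD cluster gene that was called, and because the seed, the stretch that pairs with target RNAs, is the same in both. The sequences are from RefSeq (GRCm38.p6), 5′ to 3′, with the seed, bases 2 to 8, in capitals.
mmu-miR-10b-5p, chr2:74726074-74726096, plus strand: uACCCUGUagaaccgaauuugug
mmu-miR-10a-5p, chr11:96317186-96317208, plus strand: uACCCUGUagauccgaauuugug
Counted from the 5′ end, they differ by A12U, with the base of miR-10b first. The array's probe sets measure transcripts of the 2 genes and not the mature strands.

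Mir10b was at -0.19, -0.19 and -0.13 in WT vas deferens and at 0.91, 0.42 and 0.46 in DKO. All DKO arrays lay above all WT arrays, a rise of 0.77 (SE 0.16, limma adjusted p = 0.0229). In AHDK it was at 0.53, 0 and 0.07, and in AKO at -0.09, -0.06 and 0.08. AKDH, which keeps 1 intact Hoxd copy, was at 0.70, 0.32 and 0.22. The call was lost in 5 of the 20 alternatives, among them quantile-normalized values (0.71, adjusted p = 0.0666). Also among them were the fits without WT replicate 1 (0.76, 0.0691), WT replicate 2 (0.75, 0.0834) or DKO replicate 1 (0.61, 0.0889). Over the 20 alternatives the adjusted p ran from 0.00192 to 0.0889. In uterus the same probe set went the other way, from 1.46, 1.54 and 1.73 in WT to 0, -0.02 and -0.24 in DKO, and the DKO effect in vas deferens minus that in uterus was 2.43 (limma adjusted p = 0.00075 over all genes). Over all genes that difference between tissues was called in 226 (1.13%), of which 86 were also called in DKO against WT vas deferens. The same vas deferens arrays enter both comparisons, which favours this overlap in advance. Mir10a was at -0.04, -0.04 and 0 in WT and 0.39, 0.15 and 0.29 in DKO, and its difference of 0.30 was not called (limma adjusted p = 0.279).

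The other genes of the HoxD cluster and its flanks gave 1 fall, of 15 measured (6.67%, beside 2.02% lower over all genes). Atp5g3, a gene for the membrane ring of mitochondrial ATP synthase that flanks the cluster, fell from 0.36, 0.31 and 0.30 to 0, -0.05 and -0.04 (-0.35, SE 0.06, limma adjusted p = 0.0125). AKO, which has no Hoxd mutation, was also low (0.01, -0.003 and 0.07), with AKO minus WT at -0.30 (limma adjusted p = 0.0125). AKDH was lower still (-0.31, -0.29 and -0.53). Hoxd3 (0.28), Hoxd4 (0.53) and Hoxd13 (0.36) lay above WT on average and Hoxd8 (-0.16) below, none called. The antisense RNA gene Hoxd3os1 was at -0.56, -0.45 and -0.31 in WT and -0.19, 0.04 and 0 in DKO, not called (0.39, limma adjusted p = 0.155). The flanks of HoxA held 1 fall of 13 (7.69%), the RNA gene Hottip at the posterior end of that cluster (-0.31, limma adjusted p = 0.0103). HoxB and HoxC held 1 rise of 18 (5.56%, beside 3.85% higher over all genes), Hoxb3 (0.49, limma adjusted p = 0.0376). Of the 10 genes for TALE proteins, which bind DNA together with Hox proteins, 0 were called by limma and 1 had an unadjusted p below 0.05, and Meis1 was 0.54 higher (limma adjusted p = 0.323).

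Cwc22, which encodes a spliceosome protein that helps to load the exon junction complex, gave the smallest p of all genes. It was at -0.07, -0.05 and -0.01 in WT and at 1.51, 1.36 and 1.53 in DKO, and all 8 of its probe sets were higher in DKO, by 0.90 to 1.60, with no overlap. The rise of 1.51 (SE 0.10, limma adjusted p = 3.98e-05) was absent from AHDK, which has the same Hoxd genotype: its arrays stood at 0.09, 0.05 and 0.03, and AHDK minus DKO was -1.41 (limma adjusted p = 8.85e-05). Cwc22 lies on chromosome 2, 25 measured genes from Hoxd9, and is known to be present in different copy numbers in different mouse stocks. Copy number was not measured here. In uterus single arrays of several genotypes were high, 1 of 3 in WT (2.21, the others -0.33 and -0.10) and 1 of 3 in DKO (2.04, the others at 0). Within 40 measured genes to each side of Hoxd9, a window chosen after the values were seen, 9 of 81 genes were called (11.1%, beside 5.87% over all genes), 6 higher and 3 lower. Besides Hoxd9, Mir10b, Atp5g3 and Cwc22 they were Sp5 (-0.32), Dync1i2 (0.28), Sp3os (0.38), Sestd1 (0.56) and Zfp385b (0.51), the last pair of which are the measured neighbours before Cwc22. Whether alleles linked to the Hoxd mutation differ between the groups cannot be told apart from the mutation in this design.

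The 15 largest rises among named genes ran from 0.89 to 2.08. Cartpt, which encodes the neuropeptide precursor CART, was the largest. It was at -0.27, 0 and -0.05 in WT and at 2.56, 1.28 and 2.08 in DKO, with a wide gap between the groups (2.08, SE 0.23, limma adjusted p = 0.00201). In AHDK it was at 0.36, 0.21 and 0.11, and AHDK minus DKO was -1.74 (limma adjusted p = 0.0114), while AKO stood at -0.31, -0.12 and -0.14. In uterus DKO and WT differed by -0.01, and the effect in vas deferens minus that in uterus was 2.09 (limma adjusted p = 0.00037). Cartpt kept its call in all 20 alternative fits, with differences from 1.79 to 2.43.

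**Figure D2:**
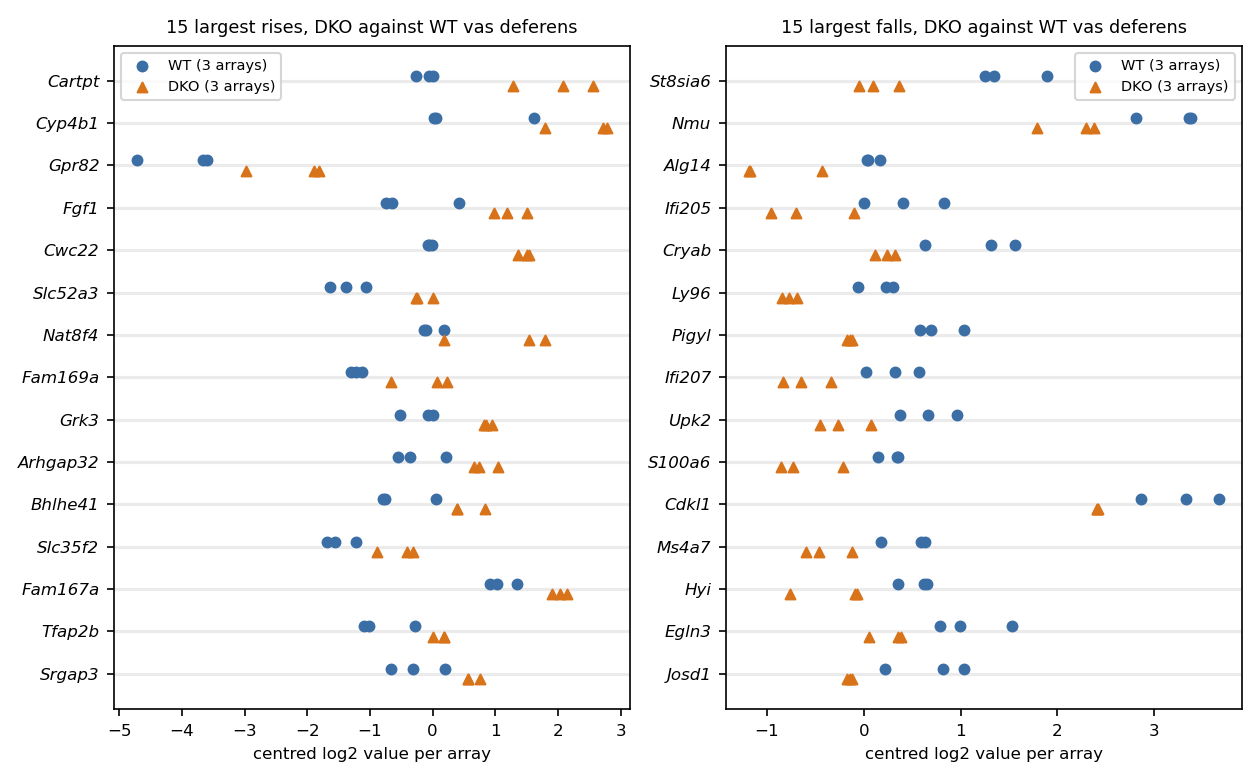
The horizontal axes give centred log2 values per array for the 15 genes that rose most and the 15 that fell most among named genes; blue circles are the 3 WT arrays and orange triangles the 3 DKO arrays. By the rule the groups do not overlap in any row: Cartpt is at 1.28 to 2.56 in DKO and at most 0 in WT, and Nmu at 1.79 to 2.38 in DKO and at least 2.81 in WT.

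The promoter of Cartpt is printed because this gene had the largest rise and because its promoter is known for a cyclic AMP response element. The 250 bases before the start site (RefSeq, GRCm38.p6, chr13:99900684-99900933, minus strand, 5′ to 3′) hold the element's palindrome TGACGTCA once, at bases 139 to 146, in capitals.
Cartpt: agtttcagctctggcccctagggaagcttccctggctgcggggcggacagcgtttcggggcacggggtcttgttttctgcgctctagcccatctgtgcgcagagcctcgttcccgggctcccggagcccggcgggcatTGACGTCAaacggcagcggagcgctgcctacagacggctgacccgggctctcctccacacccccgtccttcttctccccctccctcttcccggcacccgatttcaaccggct
Of all genes with a promoter in the table (250 bases before to 50 after the start), 2.03% held TGACGTCA, and among the 11 of the 15 rises and 10 of the 15 falls with one Cartpt was the 1 that did. CACGTG, a palindrome bound by clock and Myc-type factors, was in the promoters of Bhlhe41, Nmu and S100a6 (8.09% of all genes). The motifs CAATAAA and CGTAAA, which resemble sites of posterior Hox proteins, were in no promoter of these rises or falls on either strand, and in 5.33% and 3.46% of all genes. The first pair of motifs was chosen after the values were seen.

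Signalling genes made up several of the other rises. Fgf1, a growth factor without a signal peptide, was at -0.65, -0.75 and 0.42 in WT and 1.50, 1.19 and 0.98 in DKO, a rise of 1.55 (SE 0.33, limma adjusted p = 0.0225). AHDK was as high (0.77, 1.42 and 1.37), and so was AKDH, which keeps 1 intact Hoxd copy (1.51, 1.50 and 0.54). AKO was not (-0.31, 0 and -0.03), and DKO minus AKO was 1.34 (limma adjusted p = 0.0158). The Fgf1 call was lost in 7 of the 20 alternatives, among them the 6-array fit (adjusted p = 0.0541). It was also lost without any 1 array other than WT replicate 3 (0.0515 to 0.0955). Over the 20 alternatives the adjusted p ran from 0.000654 to 0.0955. Gpr82, an orphan receptor gene, was at -3.67, -4.71 and -3.60 in WT and at -2.97, -1.82 and -1.89 in DKO (1.77, SE 0.33, limma adjusted p = 0.0134). It was higher again in AHDK (-0.96, -1.56 and -1.24) and highest in AKO (0.28, 0.14 and 0), and DKO minus AKO was -2.37 (limma adjusted p = 0.000745). Gpr82 is also a gene of the proximal epididymis, and WT epididymis stood 3.98 above WT vas deferens. Its call was lost in the 6-array fit (adjusted p = 0.0677, the highest of the 20 alternatives, which began at 0.000887) and without WT replicate 2, DKO replicate 2 or DKO replicate 3 (adjusted p = 0.0508, 0.053 and 0.0536).

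Grk3, a kinase that silences G protein-coupled receptors, rose by 1.07, with DKO at 0.95, 0.82 and 0.85 and WT at 0, -0.51 and -0.08. Among transcription factor genes, Bhlhe41, a repressor of the circadian clock, rose by 1.04 and Tfap2b by 0.92. These 3 genes had adjusted p-values of 0.0207, 0.0287 and 0.0445 (limma).

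Transport and metabolism genes were among the other rises. Cyp4b1, a cytochrome P450 of fatty acid and xenobiotic oxidation, was at 0.02, 0.06 and 1.62 in WT and 2.77, 2.71 and 1.79 in DKO. WT replicate 3 lay next to DKO replicate 3, and the rise of 1.86 (SE 0.47, limma adjusted p = 0.0416) lost its call in 11 of 20 alternatives. Slc52a3, a riboflavin transporter, rose from -1.38, -1.65 and -1.07 to -0.26, 0 and -0.24 (1.20, SE 0.14, limma adjusted p = 0.00201) and kept its call in all 20. Slc52a3 was as high in AKO (0.02, 0.14 and -0.08), and AKO minus WT was 1.39 (limma adjusted p = 0.000194). Slc35f2, a solute carrier gene, rose by 0.95. Nat8f4, of the N-acetyltransferase 8 family, rose by 1.19, with 1 DKO array (0.18) equal to the highest WT array to the second decimal; its family members are alike in sequence, so its signal may hold RNA of other members. Fam169a (1.10) and Fam167a (0.94) rose as well. By limma AKO minus WT was also called for Fam169a (1.17), Slc35f2 (1.49) and, downwards, Fam167a (-1.72).

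The 15 largest falls ran from -0.83 to -1.36. St8sia6, a sialyltransferase gene, was at 1.26, 1.89 and 1.34 in WT and 0.36, -0.05 and 0.09 in DKO (-1.36, SE 0.19, limma adjusted p = 0.00467). It was as low in AKO (0, -0.18 and 0.07), and AKO minus WT was -1.53 (limma adjusted p = 0.000634). The St8sia6 call in DKO was lost when all 21 male arrays set the spread (adjusted p = 0.318, with 0.000309 the lowest of the 20 alternatives). Nmu, which encodes neuromedin U, a peptide that contracts smooth muscle, was at 3.37, 3.36 and 2.81 in WT and 2.29, 1.79 and 2.38 in DKO (-1.03, SE 0.17, limma adjusted p = 0.00829). In AKO it was at -0.05, 0.12 and -0.08, so the DKO values lay between those of AKO and WT, and DKO minus AKO was 2.16 (limma adjusted p = 5.22e-05). In quantile-normalized values the Nmu difference was -0.55 and not called (adjusted p = 0.253, the highest of 20 alternatives, the lowest being 0.000577).

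Several of the falls are known from immune cells. Ly96, the partner of the lipopolysaccharide receptor Tlr4, was at 0.30, -0.06 and 0.23 in WT and -0.85, -0.77 and -0.69 in DKO (-0.92, SE 0.16, limma adjusted p = 0.00945). Ms4a7, a macrophage membrane gene, fell by 0.86. Ifi205 (-0.996) and Ifi207 (-0.91) belong to a family of interferon-inducible genes with near-identical copies, so their probe sets may share signal. The mean of the 27 macrophage, dendritic cell and MHC class II genes was 0.13, 0.20 and -0.19 in WT and 0.14, -0.21 and -0.26 in DKO, overlapping groups, and 0 of the 27 were called by limma (4 at an unadjusted p below 0.05). Upk2, an uroplakin of the urothelium (-0.89), S100a6, a calcium-binding protein (-0.88), and Cryab, a small heat shock protein (-0.94), fell, as did Egln3, an oxygen-sensing prolyl hydroxylase (-0.84). Alg14, of N-glycan assembly, was at 0.03, 0.17 and 0.04 in WT and -1.18, -1.18 and -0.43 in DKO, and in AHDK it was at 0.07, -0.02 and 0.07. The last difference, AHDK minus DKO, was 0.97 and not called (limma adjusted p = 0.068). Pigyl, of GPI anchor synthesis, fell from 0.69, 1.04 and 0.58 to -0.17, -0.12 and -0.14 and kept its call in all 20 alternatives. It was below WT in AKO too (0.27, 0.07 and 0.02), with AKO minus WT at -0.65 (limma adjusted p = 0.00664). By limma AKO minus WT was also called for Cryab (-1.09) and Egln3 (-1.76). The others were the kinase gene Cdkl1 (-0.87), Hyi (-0.85) and the deubiquitinase gene Josd1 (-0.83).

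Genes of the vas deferens epithelium gave 1 rise and 3 falls of 29 (3.45% and 10.3%, beside 3.85% and 2.02% over all genes). WT epididymis minus WT vas deferens was -3.40 for Nmu, -4.48 for Cdkl1 and -4.37 for the aldo-keto reductase Akr1cl. For Eci3, an enzyme of fatty acid oxidation, it was -4.43, and for Aqp9, also of the list, 0.02. The list was chosen with earlier results of these data known, so these values are no check of the tissue label. Nmu, Cdkl1 and Akr1cl were the 3 falls. Akr1cl was at 3.88, 3.53 and 4.18 in WT and 2.71, 2.79 and 3.58 in DKO, so that 1 DKO array lay within the WT range (-0.84, SE 0.22, limma adjusted p = 0.0463). Cdkl1 was at 3.33, 3.66 and 2.86 in WT and 2.41, 2.42 and 2.41 in DKO. Eci3 was at 3.48, 4.03 and 3.31 in WT and 2.73, 2.83 and 2.91 in DKO, which do not overlap, but was not called (-0.78, limma adjusted p = 0.0806). The rise was Aqp9, a water and glycerol channel (0.30). The median of the 29 was 0.11, beside 0.02 over all genes. Above the WT mean lay 18 of 29, beside 11086 of 19938 over all genes, so the 3 falls were not a shift of the list. In quantile-normalized values Cdkl1 (-0.34, adjusted p = 0.729) and Akr1cl (-0.41, 0.653) were not called; their lowest adjusted p over the 20 alternatives were 0.00105 and 0.0184.

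Of the 15 rises, WT epididymis was above WT vas deferens in 5 and below in 3 (called), and of the 15 falls it was below in 8. Over all genes it was above in 11.2% and below in 16.8%. These differences share the WT vas deferens arrays with DKO against WT, so a gene that is high by chance on those arrays enters both, and nothing is read from these counts. The proximal epididymis list held Gpr82 as its 1 call of 40, with a median of -0.01, and the 19 cauda epididymis genes held Aqp9. These shares were 2.5% and 5.26% higher, beside 3.85% over all genes.

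**Figure D3:**
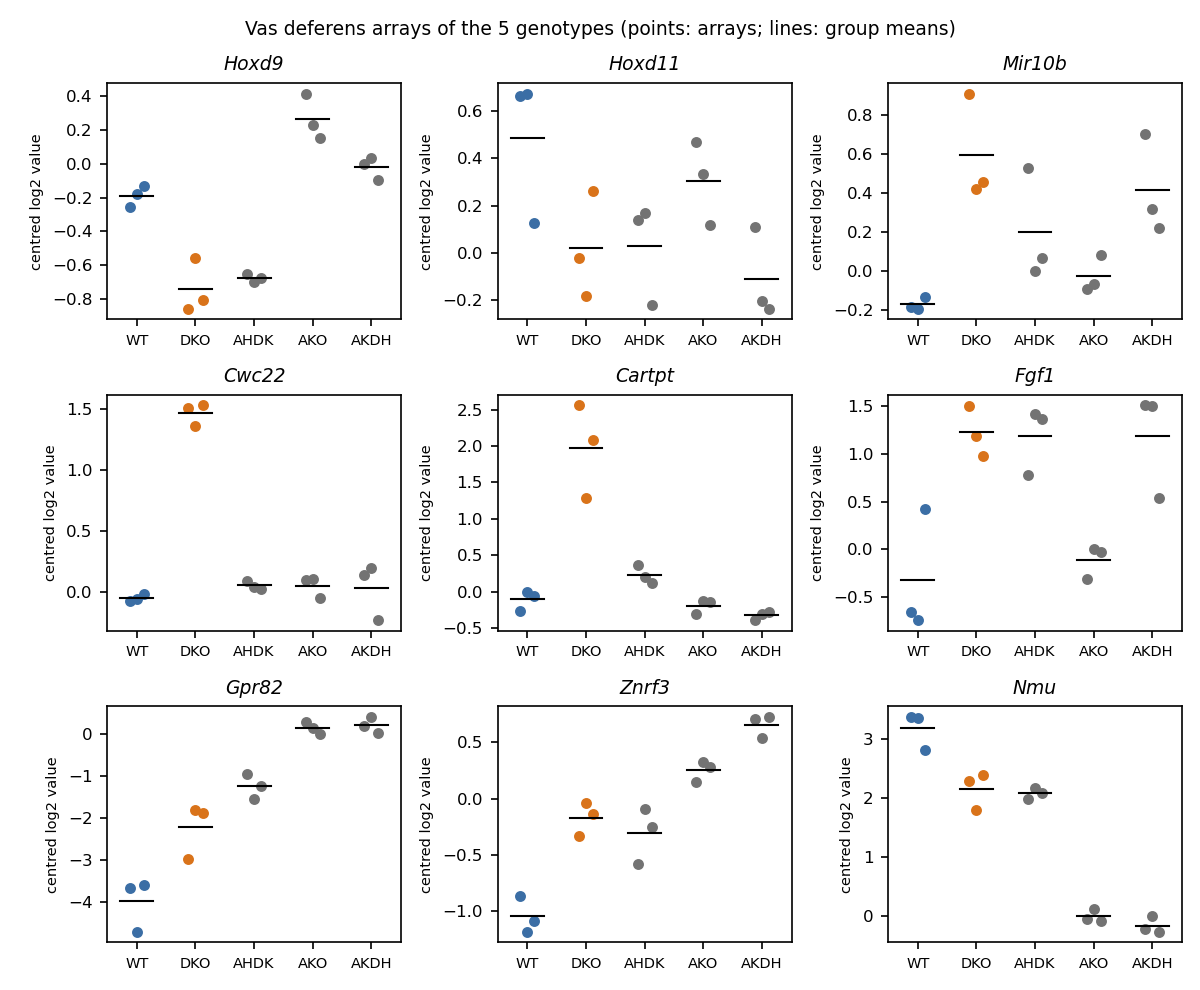
Each panel gives the centred log2 value of 1 gene on the vertical axis in the 15 vas deferens arrays, grouped by genotype along the horizontal axis; points are arrays, lines are group means, blue is WT, orange DKO and grey the other genotypes. Every DKO array of Cwc22 and Cartpt lies above every array of the other genotypes, Hoxd9 is low in DKO and AHDK, and for Gpr82, Znrf3 and Nmu the DKO values lie between those of WT and AKO.

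DKO and AKO were compared with each other without the shared WT arrays. They differed in 3551 genes (17.8%, limma adjusted p below 0.05), 2280 higher in DKO and 1271 lower. Of the 15 rises 12 were among these, and of the 15 falls 8. The rises and falls were picked by their values on the same DKO arrays, so nothing is read from these counts. Of 29 genes of the vas deferens epithelium 8 were higher in DKO than in AKO and 4 lower, with a median of 0.03. In this list DKO minus AKO was 3.08 for Akr1cl, 2.93 for Eci3, 2.46 for Cdkl1 and 2.16 for Nmu. Of 40 proximal epididymis genes 14 were lower in DKO than in AKO and 1 higher, of 19 cauda epididymis genes 3 lower and 4 higher, and of 19 seminal vesicle and prostate genes 5 lower and 0 higher, beside 6.37% lower and 11.4% higher over all genes. The differences, DKO minus AKO, reached -4.30 for Gpx5 and -3.82 for Rnase9, both of the epididymis, and -4.34 and -4.60 for the seminal vesicle genes Svs3b and Svs4. Fam167a was 2.66 higher in DKO. Of 31 smooth muscle contractile genes 20 were higher in DKO than in AKO and 0 lower (median 0.66). Of 26 adipocyte genes 14 were lower and 1 higher (median -0.75). The part of tissue make-up in the differences between DKO and AKO was not tested.

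AHDK and DKO, which differ by 1 mutant Hoxa copy, differed in 73 genes (0.366%, limma adjusted p below 0.05), 35 higher in AHDK and 38 lower, and 30 of the 73 were also called in DKO against WT. Both comparisons use the same DKO arrays, which favours that overlap in advance. Of the 15 rises Cartpt and Cwc22 were called. Plec, a cytoskeletal linker, was at 0.36, 0.15 and 0.27 in WT, 0.82, 0.73 and 0.77 in DKO and 0.04, 0.22 and -0.13 in AHDK, and AHDK minus DKO was -0.73 (limma adjusted p = 0.00693). The largest differences upwards in AHDK were in genes whose DKO and WT values overlapped. Serpina3b, a protease inhibitor, was at 2.39, 3.73 and 2.93 in AHDK and 0.12, -0.22 and 0.05 in DKO. B3galt2, a galactosyltransferase, was at -0.66, -0.33 and -0.35 in AHDK and -2.96, -2.37 and -2.597 in DKO. The mean of the 26 adipocyte genes was higher on the arrays of AHDK than of DKO (0.76, 1.02 and 0.49 in AHDK, and -0.14, -0.36 and -0.20 in DKO), and its part in these differences was not tested.

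Developmental signalling pathways gave few calls. Beside the 3.85% of all genes called higher, the share was 4.76% in the Wnt list, 2.63% in the BMP and TGF-beta list, 4% in the FGF list and 3.45% among duct patterning genes, and 14.3% in the short Hedgehog and retinoic acid lists. Among 42 Wnt pathway genes 2 rose and 1 fell (2.38% lower, beside 2.02% over all genes). Znrf3, a ubiquitin ligase that removes Wnt receptors and is itself induced by Wnt, was at -0.87, -1.18 and -1.09 in WT and -0.33, -0.04 and -0.14 in DKO (0.88, SE 0.12, limma adjusted p = 0.00467), between WT and AKO (0.14, 0.33 and 0.28). The co-receptor Lrp5 rose by 0.48 and kept its call in all 20 alternatives. Sp5, a transcriptional target of Wnt signalling, fell by 0.32. The secreted Wnt inhibitor Sfrp1 was at -0.18, -0.32 and -0.44 in WT and 0.33, -0.08 and 0.10 in DKO, which do not overlap, but was not called (0.43, limma adjusted p = 0.0894).

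Of 14 Hedgehog genes the receptor Ptch1 (0.40) and the inhibitor Sufu (0.35) rose, and both had 3 DKO arrays within 0.03 of 0. Of 21 genes of retinoic acid handling 3 rose, the nuclear receptors Rarg (0.37), Rxra (0.40) and Rxrb (0.24), with adjusted p from 0.0263 to 0.0364 (limma). Aldh1a2, the enzyme that makes retinoic acid, was at -0.17, -0.15 and 0.02 in WT and 0.96, 0.60 and 0.33 in DKO and was not called (0.73, limma adjusted p = 0.11). Of 38 BMP and TGF-beta genes 1 rose, the inhibitory Smad7 (0.55, limma adjusted p = 0.0234). Fgf1 was the 1 called of 25 FGF pathway genes, whose median was 0.20, and Fgf9 was at -0.08, 0.32 and 0.53 in WT and 0.78, 0.80 and 0.81 in DKO, not called (0.54, limma adjusted p = 0.078). Tbx3, a T-box factor, was the 1 called of 29 duct patterning genes (0.32). In quantile-normalized values Ptch1 was called, and Sufu, Rarg, Rxra, Rxrb, Smad7 and Tbx3 lay above WT and were not.

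**Figure D4:**
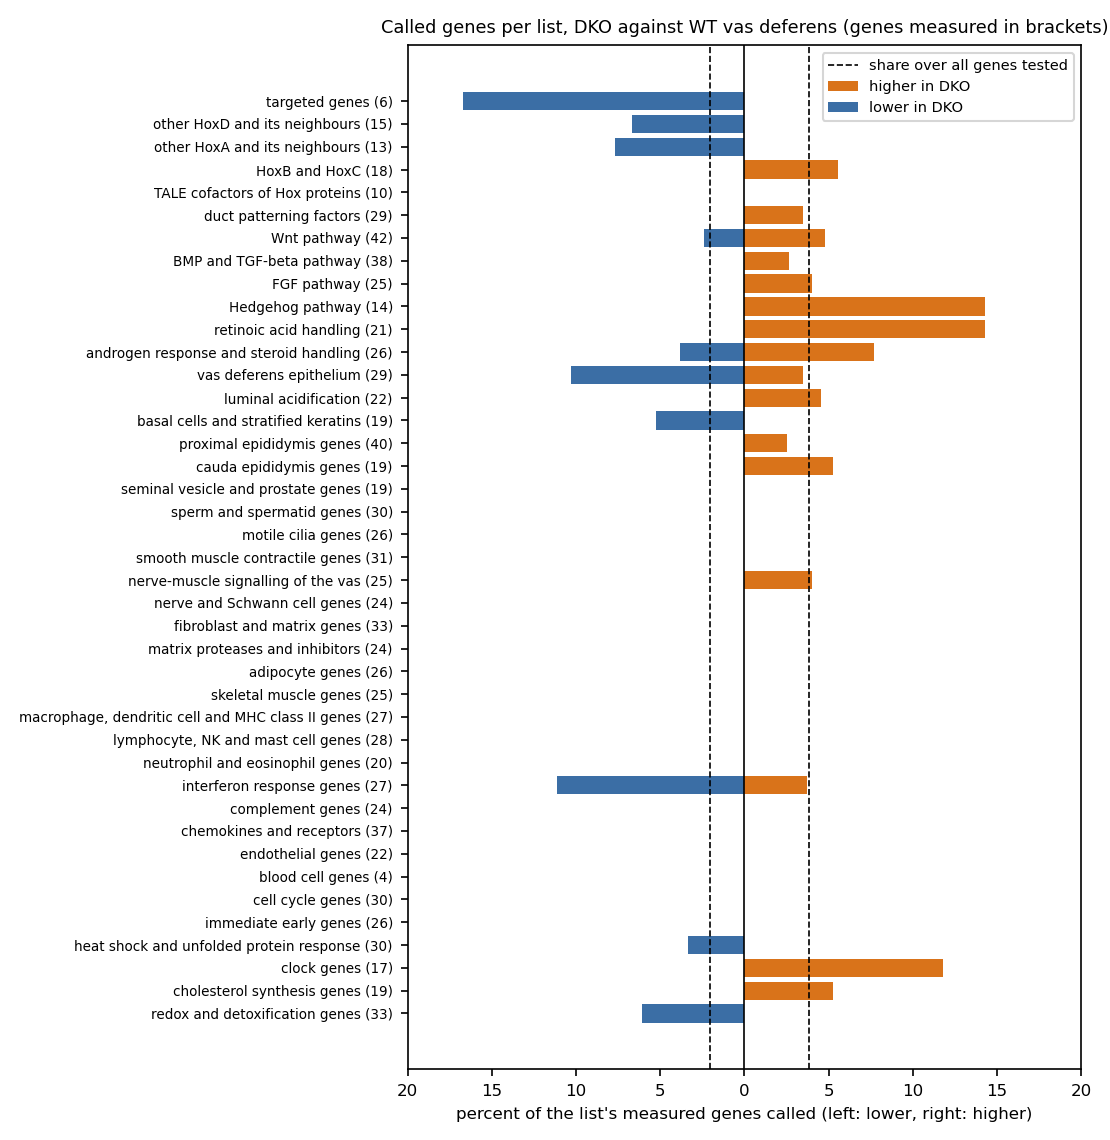
Bars give the percent of the measured genes of each list that were called, lower in DKO to the left and higher to the right; the number measured is in brackets, and dashed lines mark the shares over all genes, 2.02% lower and 3.85% higher. Most lists hold at most 3 called genes, so a long bar on a short list stands for few genes.

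Hormone and secretion genes followed. Of 26 genes of androgen response and steroid handling, the glucocorticoid and androgen receptor co-chaperones Fkbp5 (0.54) and Fkbp4 (0.32) rose. Akr1c14, a reductase of steroid hormones, fell from 0.80, 0.78 and 1.48 to 0.18, 0.39 and 0.42 (-0.69, SE 0.16, limma adjusted p = 0.0275). The shares were 7.69% higher and 3.85% lower, beside 3.85% and 2.02% over all genes. Of 22 genes of luminal acidification, which keeps sperm quiescent, the proton pump subunit Atp6v1b2 rose (0.43), which is 4.55% higher. Foxi1, the factor of the acid-secreting clear cells, was 0.52 higher and not called (limma adjusted p = 0.235). Upk2 was the 1 call of 19 basal cell and keratin genes, which is 5.26% lower.

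The muscle coat and its nerves showed few called differences. Of 31 smooth muscle contractile genes 0 were called by limma and 1 had an unadjusted p below 0.05, and their mean was 0.79, 0.67 and 0.24 in WT and 0.79, 0.52 and 0.76 in DKO. Of 25 genes of nerve-muscle signalling 1 rose (4%, beside 3.85% over all genes). It was the muscarinic receptor Chrm3, from -0.21, -0.32 and 0.11 to 0.34, 0.63 and 0.63 (0.67, SE 0.15, limma adjusted p = 0.0261). The purine receptor P2ry2 was at 0.31, 0.31 and 0.27 in WT and 0, 0.02 and -0.12 in DKO, which do not overlap, and was not called. Among 24 nerve and Schwann cell genes, 33 fibroblast and matrix genes, 24 matrix proteases and inhibitors and 22 endothelial genes 0 were called by limma, and 3, 1, 2 and 3 had an unadjusted p below 0.05. Over all genes that share was 20.7%.

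Of 27 interferon response genes, the RNA sensors Oas1a (-0.45), Oas2 (-0.38) and Oas3 (-0.27) fell and the sensor Ifih1 rose (0.60). These are 11.1% lower and 3.7% higher, beside 2.02% and 3.85% over all genes. Among 28 lymphocyte genes, 20 neutrophil and eosinophil genes, 24 complement genes and 37 chemokines and receptors 0 were called by limma, and 3, 2, 2 and 5 had an unadjusted p below 0.05. The 30 sperm genes had means of -0.03, -0.16 and 0.19 in WT and -0.24, 0.26 and -0.41 in DKO, with the protamine gene Prm1 at 1.36, 0.25 and 1.20 against 0, 1.44 and -0.75. They and 26 motile cilia genes held 0 genes with an unadjusted limma p below 0.05. Among 30 cell cycle genes, 26 immediate early genes and 26 adipocyte genes 0 were called by limma, and 4, 5 and 1 had an unadjusted p below 0.05. The adipocyte mean was -0.72, -0.40 and -0.06 in WT, and DKO lay within that range. The 4 blood cell genes measured were not called, at an adjusted or unadjusted p.

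Clock genes had the highest list median, 0.41 over 17 genes, and 2 rose, Bhlhe41 and the nuclear receptor Rora (0.55). That is 11.8%, beside 3.85% over all genes. The clock output factors Dbp and Tef were at -0.64, -0.46 and 0.45 and at -0.57, -0.62 and 0.36 in WT, and at 0.63, 0.63 and 0.51 and at 0.66, 0.59 and 0.37 in DKO. WT replicate 3 stood apart in both, and neither was called. No label gives the time of day of dissection. Of 19 cholesterol synthesis genes 18 lay above WT on average (median 0.20), beside 11086 of 19938 over all genes. The mean of the 19 was -0.42, -0.52 and -0.05 in WT and -0.16, 0.03 and -0.11 in DKO. WT replicate 3 lay above DKO replicates 1 and 3, so the groups overlapped. The 1 called of the 19 genes was Srebf2, their transcriptional activator, which rose (0.49, limma adjusted p = 0.0122). That is 5.26% higher, beside 3.85% over all genes. Of 33 redox genes Aldh3a1 (-0.41) and the mitochondrial superoxide dismutase Sod2 (-0.32) fell. Of 30 heat shock and unfolded protein genes the co-chaperone Dnaja1 fell (-0.41), in both probe sets. The shares lower were 6.06% and 3.33%, beside 2.02% over all genes.

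Some gene families moved with little size but many members. They were picked from the called genes, so their counts are descriptions, and over all genes 3.85% rose and 2.02% fell. Among 55 cytosolic ribosomal protein genes 14 fell and 2 rose (25.5% lower), among 77 mitochondrial ribosomal protein genes 11 fell and 3 rose, among 43 Nduf genes of respiratory complex I 7 fell and 2 rose, and among 50 proteasome genes 10 fell and 3 rose. Their medians were -0.11, -0.08, -0.06 and -0.05, and stayed below 0 in quantile-normalized, median-centred and small RNA-adjusted values, but with the small RNA mean as a covariate the falls of the 4 families became 3, 2, 6 and 3 and their rises 2, 3, 1 and 3. In quantile-normalized values the falls were 9, 6, 7 and 6. The Nduf mean was 0.18, 0.17 and 0.12 in WT and 0.06, 0.08 and 0.09 in DKO. It was lower still in AKO (0.01, -0.05 and 0.01), AHDK (0.006, 0.01 and 0.003) and AKDH (-0.17, -0.10 and -0.20). The mitochondrial ribosomal and proteasome means of every AKO array also lay below those of every WT array. The cytosolic ribosomal means of AKO lay above those of WT. Of 347 Zfp zinc finger genes 30 rose and 3 fell (8.65% and 0.865%, median 0.11), and in quantile-normalized values 5 rose and 3 fell. Among 69 small structural RNA genes (snoRNA, Y RNA and related) 11 fell (15.9%) and 0 rose, and in quantile-normalized values 3 fell and 0 rose.

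Several small RNA genes were among the largest called falls. Snord47, a box C/D guide RNA of rRNA methylation, fell by 1.78 and kept its call in all 20 alternatives, and Rny1, a Y RNA, fell by 1.62. Snord49b (-1.14), Snord73b (-0.95), Snora73b (-0.92) and Snord33 (-0.88) followed. The mean of the 69 was 0.04, 0.04 and 0.10 in WT and -0.12, -0.16 and -0.19 in DKO, with no overlap, and it was -0.36 to 0.10 in AHDK. With this mean as a covariate the median of the family turned from -0.09 to 0.06, which the covariate itself brings about, and 906 genes were called, of which 579 were among the 1170. RNA quality was not measured by any value in the files. Among uncharacterised transcripts 1810037I17Rik fell by 2.12 and BC034090 rose by 1.22.

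Gene length went with the direction of the calls. Protein-coding genes were split into 4 groups of 4639 by the length of the gene on the chromosome. In the group of shortest genes 94 rose and 121 fell, and in the longest 233 rose and 36 fell. The median length was 26.6 kb in the genes called higher, 11.5 kb in those called lower and 19.2 kb in all. In quantile-normalized values the longest had 61 rises and 22 falls and the shortest 24 and 71. With the small RNA mean as a covariate the longest had 250 and 21, and the shortest turned to 73 rises and 56 falls.

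**Figure D5:**
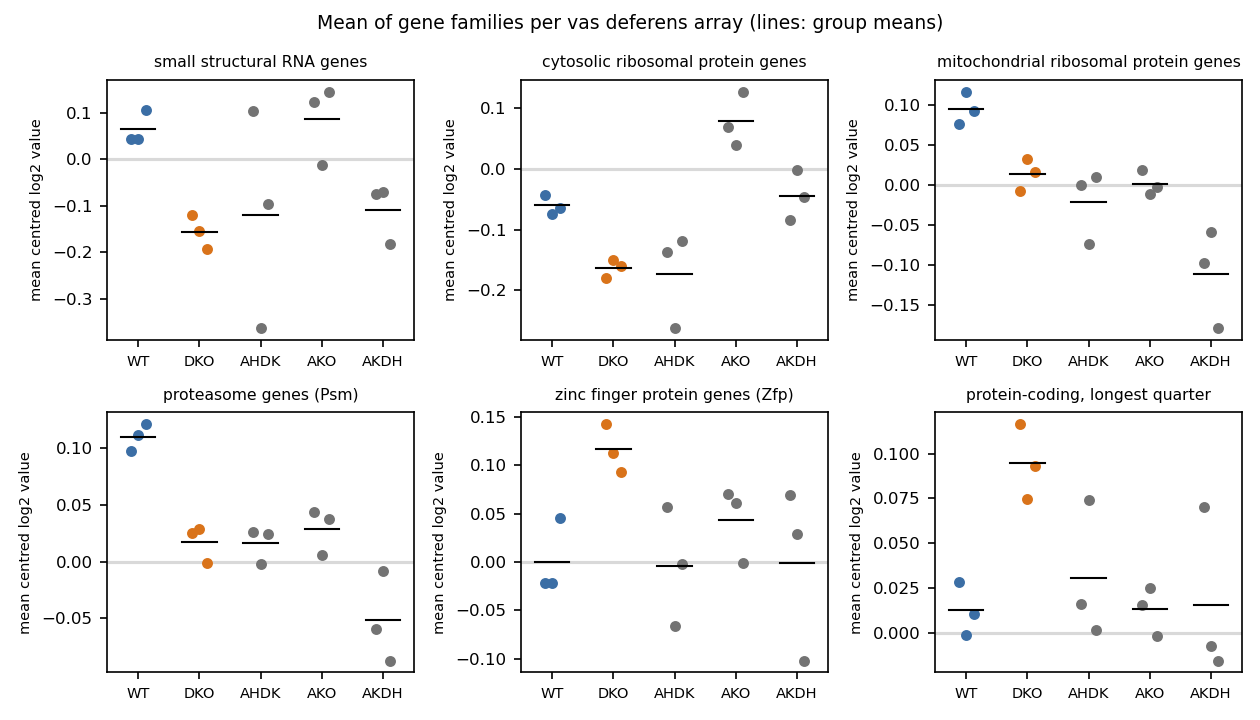
Each panel gives the mean centred log2 value of 1 gene family on the vertical axis, per vas deferens array and grouped by genotype along the horizontal axis; lines are group means, blue is WT, orange DKO and grey the other genotypes. Small structural RNA genes are at 0.04 to 0.10 in WT and -0.19 to -0.12 in DKO, and the vertical scales differ between panels.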

How the data were processed

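The authors deposited 1 value per probe set for 42 Affymetrix whole-transcript arrays, per the labels from 300 ng of total RNA. The deposited values behave as log2 and were centred: each probe set has a median of 0 over the 21 male and over the 21 female arrays. How probes were summarised and arrays normalized is not given here, the log base was not stated and was taken as 2, and signal over background cannot be had.

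Probe sets with exactly 1 gene symbol (21789 of 28856; 1621 had several, 5446 none) were averaged into 19938 genes. The 15 vas deferens arrays were fitted with limma 3.58.1 (R 4.3.3), with group means and eBayes, tested on simulated data, and adjusted by Benjamini-Hochberg over all genes. The contrast between tissues used the 30 vas deferens and uterus arrays and was added later. No vas deferens arrays were identical (highest pairwise r 0.83). With 3 arrays a group, p-values measure the spread between these arrays.

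Named were the 6 targeted genes, the 15 largest called rises and falls with no overlap (uncharacterised names, receptor families of smell and taste, pseudogenes and small RNAs passed over), and members of 41 gene lists (993 of 1094 symbols measured). Members and lists were chosen with earlier results of these data known; small RNA, HoxD neighbour, family and uncalled genes were named after their values were seen. Alternatives were other normalizations, priors, weights, probe set rules, covariates, thresholds and left-out arrays. The description of some of the 15 rises is not reported here.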

Additional observations from a re-analysis of the deposited data

Results flagged for a closer look

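The genes below had a DKO effect in vas deferens that differed from the DKO effect in uterus by a test of the difference itself (limma over vas deferens and uterus arrays, adjusted p below 0.05). Uterus and vas deferens come from different sexes, so tissue and sex cannot be told apart. Each value is the effect in vas deferens minus that in uterus.

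Among genes higher in DKO vas deferens, the difference was 2.43 for Mir10b, 2.09 for the neuropeptide gene Cartpt, 1.31 for the receptor kinase gene Grk3 (uterus -0.24; adjusted p = 0.0284), 1.03 for the Wnt feedback gene Znrf3 (uterus -0.15; adjusted p = 0.0195), 0.99 for Fam169a, 0.94 for Arhgap32 and 0.50 for the retinoid receptor gene Rxrb. Hoxb4 was 0.45 in vas deferens, not called, and -0.75 in uterus, a difference of 1.20.

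Among genes lower in DKO vas deferens, it was -2.08 for the lipopolysaccharide receptor partner Ly96, which was 1.16 higher in DKO uterus (adjusted p = 0.0157), -1.67 for St8sia6 (uterus 0.31; adjusted p = 0.00389), -1.50 for Alg14, -1.04 for Nmu and -0.85 for Pigyl. Another 3 were immune cell genes not called in vas deferens: the difference was -2.43 for the chemokine gene Ccl6 (-0.62 in vas deferens, 1.81 in uterus), -1.40 for the complement gene C1qb and -1.12 for the MHC class II chaperone gene Cd74. The purine receptor gene P2ry2 gave -0.98. The Wnt inhibitor gene Sfrp1 lay above WT in both tissues, by 0.43 (not called) and 1.80, a difference of -1.37.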

How the results depend on the processing

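Of the 73 called genes named, all kept their direction in all 20 alternative fits, 9 also kept their call in each (Snord47, Slc52a3, Lrp5, Pigyl, Cwc22, Cartpt, BC034090, Hottip and Atp5g3), and 11 lost it in 1 to 3. The count of 1170 calls (768 higher, 402 lower) became 438 (194 and 244) after quantile normalization, 3926 (2590 and 1336) with array weights, 724 (455 higher) with an adipocyte score and 647 (442 and 205) with a skeletal muscle score as a covariate, 1992 (1311 and 681) at an adjusted p below 0.1 and 157 (91 and 66) at 0.01. It was 238 to 1323 with 1 WT or DKO array left out (134 to 958 higher, 104 to 365 lower). Without AKDH replicate 3 it was 1550 (1044 and 506). With the small RNA score, an alternative chosen after seeing the data, 184 genes were lower. The fit of the 6 arrays alone gave 882 calls, of which 611 were among the 1170. For AHDK against DKO the 73 calls became 117 with all 21 male arrays, 36 without the flattest genes (0.25 of all) and 181 without AKDH replicate 3. The replicate numbers did not pair the samples (correlations of WT with DKO deviations -0.01, -0.19 and 0), and a replicate block gave 826 calls for DKO against WT and 18 for AHDK against DKO. The cause of these changes was not tested. None of the genes that turned sign was called: with the small RNA score Hoxa9 was -0.063 and Hoxd13 -0.027, and with 1 array left out Hoxd10 ranged from -0.025 (without DKO replicate 3) to 0.30, Tgm4 from -2.66 to 0.046 and Pbsn from -2.30 to 0.018 (both without WT replicate 3). Centred values give no signal over background, so a dim probe set cannot be told from a flat one.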
